A study of Mus musculus with 9 samples.

Results

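The 33 genes described here encode enzymes, regulators and a carrier of cholesterol and fatty acid synthesis, and were chosen by name for those roles. They comprised 7 genes of the mevalonate steps (Acat2, Hmgcs1, Mvk, Pmvk, Mvd, Idi1 and Fdps), 11 of the sterol steps (Fdft1, Sqle, Lss, Cyp51, Tm7sf2, Msmo1, Nsdhl, Hsd17b7, Ebp, Sc5d and Dhcr7) and 4 regulators or carriers of sterols (Srebf1, Srebf2, Insig1 and Stard4). The other genes were 3 of fatty acid synthesis (Acly, Acaca and Fasn), 4 desaturases (Scd1, Scd2, Fads1 and Fads2) and 4 elongases (Elovl1, Elovl4, Elovl5 and Elovl6). Of the 33, 31 matched 62 probe sets on the array, and each was read from its brightest probe set. Acat2 and Insig1 had no matching probe set in the annotation used here. Acaca, the carboxylase that makes malonyl-CoA, stayed between 4.73 and 5.73 log2 units and below the median signal of its own array in all 9 arrays, so 30 of the 33 were tested, out of 7795 genes tested and 12384 named on the array.

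The series profiled sorted cells of the mouse hair follicle during the second resting phase (telogen), asking which signals the dermal papilla sends toward hair regrowth and how hair germ and bulge differ. All cells came from the back skin of virgin female CD1 mice carrying Lef1RFP and K14H2BGFP, a red reporter under Lef1 and a green histone reporter under keratin 14. Bulge cells, the upper stem cell compartment, were sorted as GFP(+) RFP(-) CD34(+) with low P-cadherin. Hair germ cells, the small cluster between bulge and papilla, were GFP(+) RFP(-) CD34(-) with high P-cadherin. Dermal papilla cells, the mesenchymal signalling centre, were RFP(+) GFP(-) and negative for CD45, CD117 and integrin alpha 7, and by the sample titles also for CD34. Each of the 3 populations was sampled in early, mid and late telogen (postnatal days 43, 56 and 69), with 1 array for a population on a day and 2 rounds of RNA amplification before labelling. The 3 days stand in for replicates of a population, and day is also a term of the model. The p-values therefore rest on the spread left after population and day. In that spread, differences between samples and day courses particular to a population cannot be told apart. Neither the number of mice behind an array nor whether the populations of a day shared mice is given in the sources used here.

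Cholesterol is built from acetyl-CoA through mevalonate, isoprenoid units and squalene to lanosterol, which a chain of oxidases, reductases and isomerases then converts to cholesterol. Fatty acids are built from the same precursor by fatty acid synthase, and elongases and desaturases then set their length and double bonds. SREBP transcription factors, the products of Srebf1 and Srebf2, switch on both pathways when membrane sterol is low, and in skin the lipids feed membranes of growing cells, sebum and the epidermal barrier.

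Levels are log2(signal + 16), and values of a population are listed in the order of days 43, 56 and 69. A difference passed when its adjusted p from limma fell below 0.05 over all 7795 genes. Array medians ran from signals of 39.9 to 56.3. The 3' to 5' signal ratio of the GAPDH control, which grows as RNA or its amplified copy shortens, was 8.34, 2.97 and 7.9 for hair germ, 6.62, 4.13 and 3.77 for papilla, and 4.46, 5.09 and 3.96 for bulge. Cd34 averaged 11.69 in bulge, 5.36 in papilla and 4.7 in hair germ, and Krt14 averaged 13.02 in hair germ and 10.91 in bulge against 5.06 in dermal papilla, as the sort labels say. Crabp1, a papilla marker outside the gates, averaged 13.04 in dermal papilla and at most 5.2 elsewhere. The papilla array of day 43 stood apart from the later papilla arrays in some epithelial genes: Krt15 read 8.13, 4.29 and 4.06 in papilla, Krt5 7.46, 5.87 and 5.86, and Fgf18 9.14, 5.11 and 5.55. The epidermis marker Krt10 also fell over the days, at 9.37, 8.5 and 7.47. Krt14 was instead lowest on day 43, at 4.41, 5 and 5.78, and the epidermis marker Calml3 ranged only from 5.28 to 5.64. The lowest epithelial array read 12.93 for Krt15 and 12.69 for Krt5, and Fgf18 read 11.11, 11.31 and 10.19 in bulge against at most 4.36 in hair germ. The part of epithelial RNA in the papilla values of day 43 was not tested. These are bulk samples, in which fewer cells of a type and less RNA per cell cannot be told apart.

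Bulge was the low population for most of these genes. Its mean was the lowest of the 3 populations for 19 of the 30 genes, and hair germ had the highest mean for 18, dermal papilla for 9 and bulge for 3. Over all genes tested, bulge was lowest for 33.4% and hair germ highest for 39.9%. The clearest differences lay in the lanosterol demethylase Cyp51 and in the desaturases Scd1, Scd2 and Fads1, while Elovl5 ran the other way with its highest level in bulge. The desaturase Fads2 was high in papilla, but hair germ and bulge overlapped. Its probe set was above the array median in papilla arrays only, so a difference was built into its selection.

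**Figure D1:**
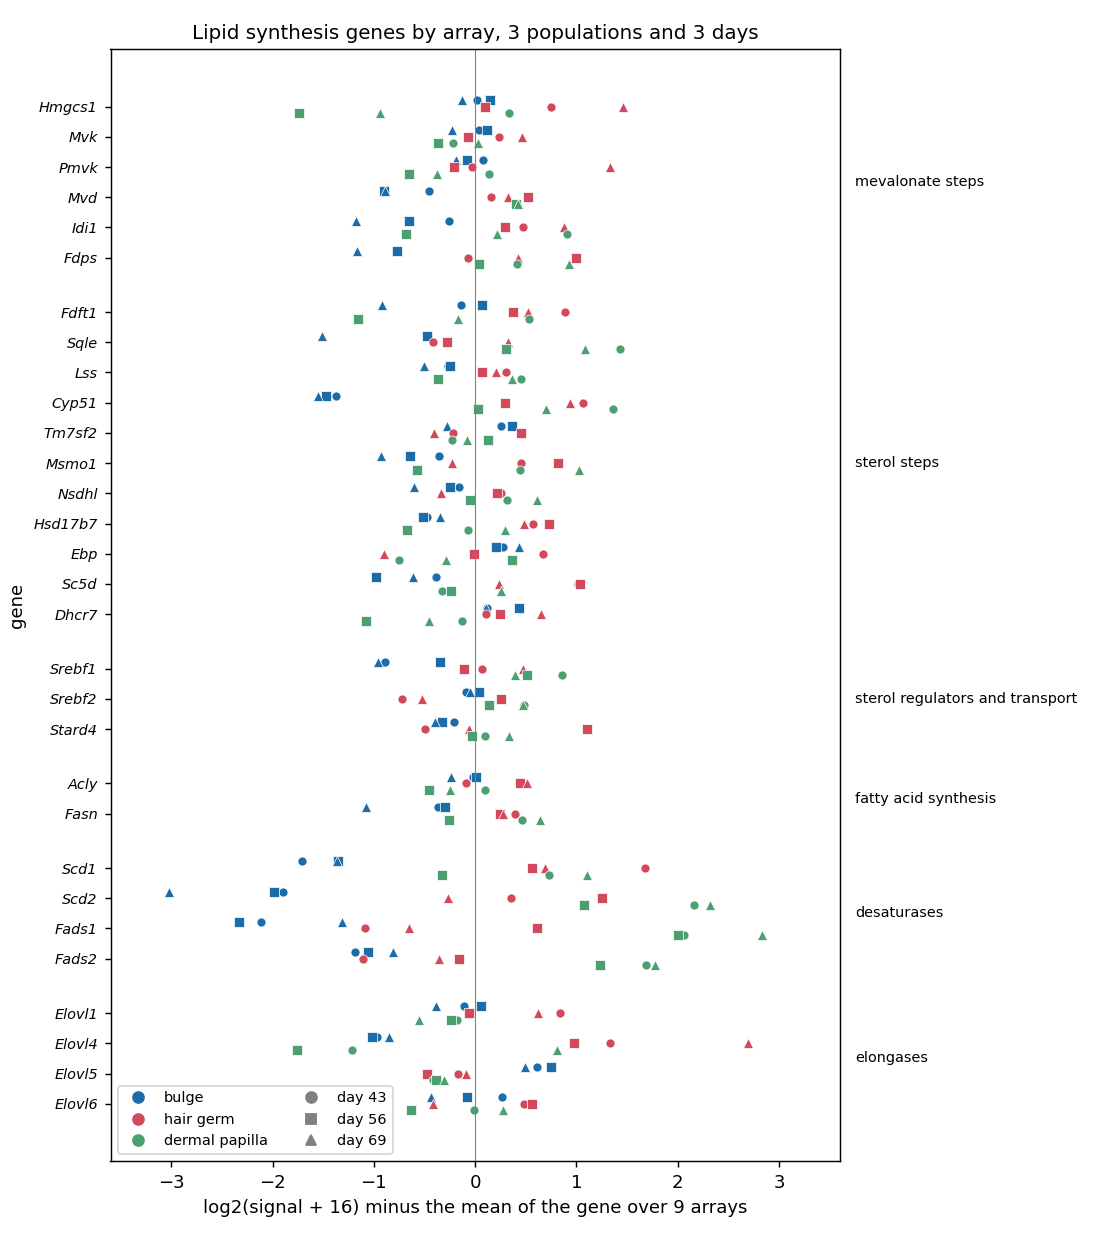
Level of each of the 30 tested genes in each array, as log2(signal + 16) minus the mean of that gene over the 9 arrays (x axis), with genes in rows by role, colour for population and symbol for day. Cyp51, Scd1, Scd2, Fads1 and Srebf1 show all 3 bulge points below every point of the other populations, and Elovl5 shows all 3 above.

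Between hair germ and bulge, 12 of the 30 genes were higher in hair germ and 1 was lower, where 19.7% of all genes passed in either direction, 12.2% as higher and 7.56% as lower. The higher genes were Mvd, Idi1, Fdps, Cyp51, Hsd17b7, Sc5d, Srebf1, Fasn, Scd1, Scd2, Fads1 and Elovl4, and the lower gene was Elovl5. The median difference over the 30 genes was 0.72 log2 units against 0.1 over all genes. Centring each array on its median moved the median of all genes to -0.1 and that of the 30 genes to 0.51, so they stood 0.62 above the rest either way. With that centring 10 of the 30 genes were higher and 1 lower, as after quantile normalization. Over all genes the split of 948 higher and 589 lower became 612 and 941 after median centring and 692 and 794 after quantile normalization. Mvd and Elovl4 passed the filter on dim probe sets without any bulge array above its median, so a difference was built into their selection. Without the filter 11 of 31 genes were higher and 1 lower.

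The number of genes that passed in this comparison depended on single arrays. It was 7 without the bulge array of day 43, 8 without that of day 56, 7 without that of day 69 and 8 without the hair germ array of day 56, against 13 with all arrays. Cyp51, Scd1 and Scd2 passed under all 19 alternatives, and Elovl4 under all but one: without the 3 arrays with a GAPDH ratio above 6, which leaves 1 hair germ array, its difference was 1.92 log2 units with an adjusted p of 0.15. The other 9 genes kept the sign of their difference and missed the threshold under at least 1 alternative, with highest adjusted p-values from 0.052 for Sc5d to 0.262 for Fasn.

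Dermal papilla and bulge differed in 12 of the 30 genes, 10 higher and 2 lower in papilla, where 35.2% of all genes passed, 16.1% higher and 19% lower. The 10 higher genes were Mvd, Fdps, Sqle, Cyp51, Srebf1, Fasn, Scd1, Scd2, Fads1 and Fads2, and the lower ones were Dhcr7 and Elovl5. The median over the 30 genes was 0.47 against -0.05 over all genes. All of these except Fasn and Dhcr7 passed under all 19 alternatives. Fads2 passed the filter through papilla arrays only and Mvd without any bulge array, so a difference was built into their selection, and without the filter 10 of 31 genes were higher and 1 lower.

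Dermal papilla and hair germ differed in 10 of the 30 genes, 4 higher and 6 lower in papilla, where 39.3% of all genes passed, 15.5% higher and 23.8% lower. Sqle, Scd2, Fads1 and Fads2 were higher in papilla, and Hmgcs1, Hsd17b7, Sc5d, Dhcr7, Elovl1 and Elovl4 were lower. The split was 5 higher and 2 lower after quantile normalization, and 5 and 3 after median centring. Over all genes, 1207 higher and 1853 lower became 1526 and 1505 after quantile normalization and 1451 and 1482 after median centring. The number was 6 without the papilla array of day 43, the papilla array of day 69 or the hair germ array of day 43, and only Fads1 and Fads2 passed under all 19 alternatives. Fads2 passed the filter through papilla arrays only, so a difference was built into its selection, also for the comparison that follows. Elovl4 lay above the array median in 3 hair germ arrays and 1 papilla array. Against the mean of both epithelial populations, 7 of the 30 genes were higher and 4 lower in papilla, where 40.3% of all genes passed. That number was 7 in all without the papilla array of day 43 or that of day 69, against 11. These comparisons share arrays, so their counts are not independent of each other.

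**Figure D2:**
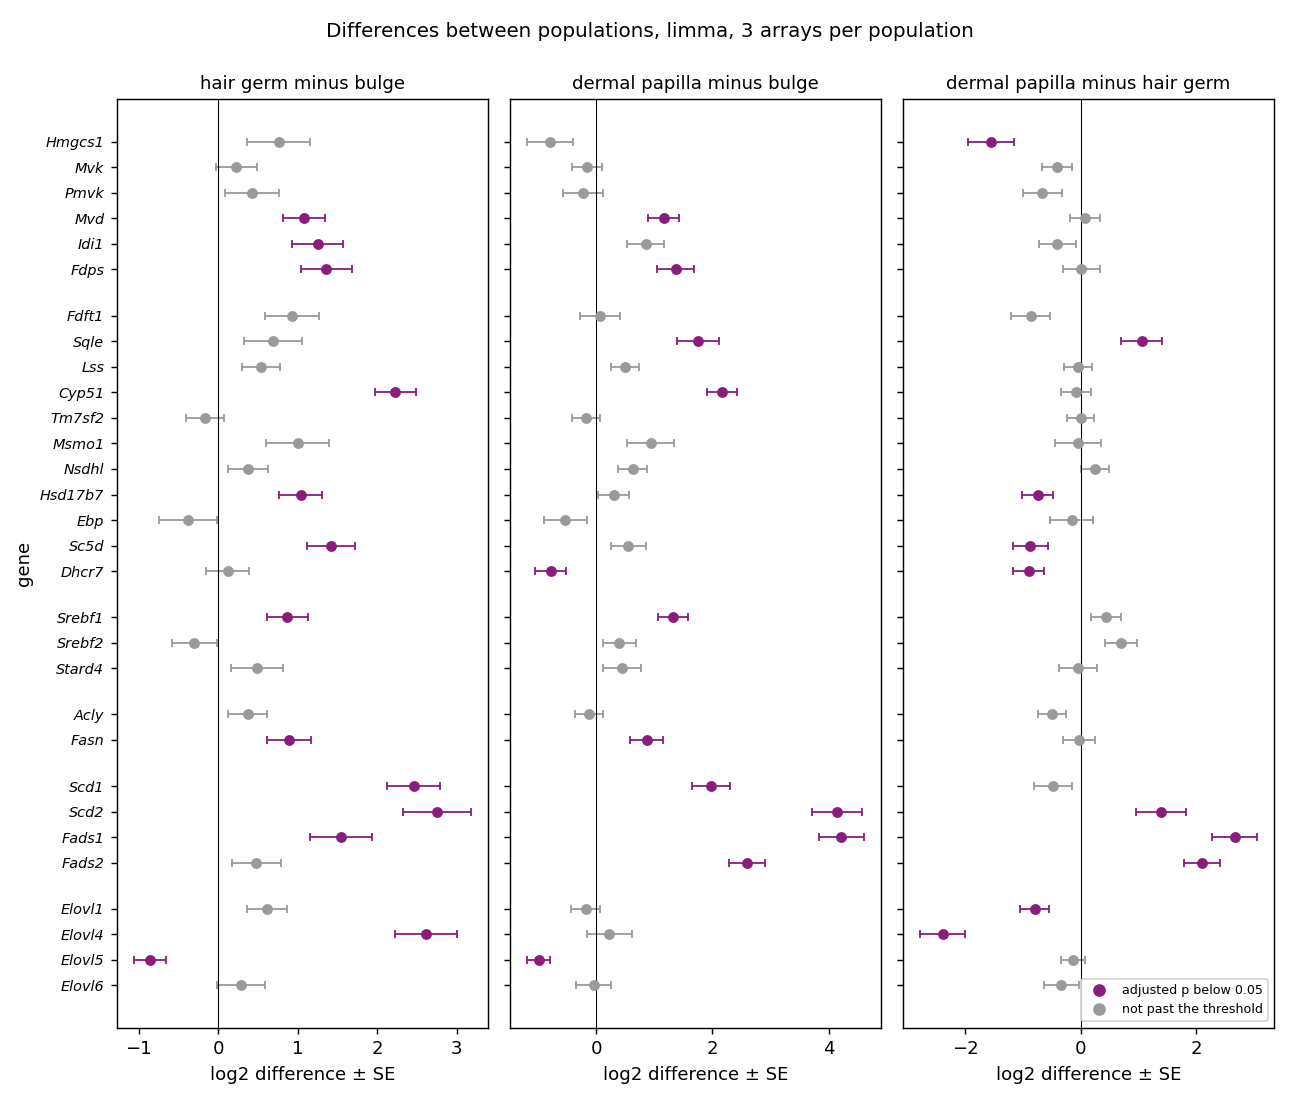
Difference between populations for each tested gene in log2 units (x axis, point ± SE from limma, 3 arrays per population), one panel per comparison, coloured where the adjusted p was below 0.05. The 4 desaturases lie to the right in the panel of dermal papilla minus bulge, from 1.98 for Scd1 to 4.22 for Fads1, and Elovl4 lies farthest left at -2.39 in the panel of dermal papilla minus hair germ.

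Among the mevalonate steps, 3 of 6 tested genes were higher in hair germ than in bulge, where 12.2% of all genes were, and none was lower. Fdps, which makes farnesyl diphosphate, read 6.29, 6.3 and 5.91 in bulge, 7, 8.07 and 7.5 in hair germ, and 7.49, 7.11 and 8 in papilla. All 6 hair germ and papilla values lay above the 3 bulge values, and hair germ and papilla overlapped. The difference was 1.36 ± 0.32 (SE) log2 units for hair germ over bulge (adjusted p 0.0143) and 1.37 ± 0.32 for papilla over bulge (adjusted p 0.00671).

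Mvd, the decarboxylase that yields the first isoprenoid unit, read 5.72, 5.27 and 5.28 in bulge, 6.33, 6.69 and 6.5 in hair germ, and 6.58, 6.58 and 6.6 in papilla. Bulge again stood apart below the other populations, and below its array medians. Mvd was 1.08 ± 0.26 higher in hair germ than in bulge (adjusted p 0.0145) and 1.16 ± 0.26 higher in papilla than in bulge (adjusted p 0.00455). Idi1, the isomerase of the isoprenoid unit, read 8.55, 8.16 and 7.63 in bulge, 9.28, 9.1 and 9.69 in hair germ, and 9.72, 8.13 and 9.03 in papilla. Hair germ lay above bulge on each day, by 1.25 ± 0.32 (adjusted p 0.0198), whereas the papilla values overlapped both.

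Hmgcs1, the synthase that opens the committed pathway, had a different order. It read 12.85, 12.2 and 13.56 in hair germ, 12.12, 12.25 and 11.97 in bulge, and 12.43, 10.36 and 11.16 in papilla. With this brightest probe set the papilla array of day 43, the one with higher Krt15, Krt5 and Fgf18, lay within the epithelial range. Those of days 56 and 69 were the lowest of all 9. Hmgcs1 was 1.55 ± 0.4 log2 units lower in papilla than in hair germ (adjusted p 0.0101), a call that ended without the papilla array of day 56 (adjusted p 0.0842) or that of day 69 (0.0564). Its 4 probe sets all put papilla below hair germ, by 0.96 to 1.66 log2 units. The order against bulge was less firm. Papilla minus bulge was -0.79 with the brightest probe set and -0.2 to -0.28 with the others. With those others the papilla array of day 69 lay at or above every bulge array. Mvk and Pmvk, the kinases between Hmgcs1 and Mvd, passed in no comparison of populations. Their means ran from 6.05 ± 0.2 (SD, n = 3) in papilla to 6.44 ± 0.27 in hair germ for Mvk, and from 7.29 ± 0.4 to 7.95 ± 0.84 for Pmvk.

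Of the 11 sterol step genes, 3 were higher in hair germ than in bulge (Cyp51, Hsd17b7 and Sc5d), against 12.2% of all genes. Cyp51, which removes a methyl group from lanosterol, read 6.18, 6.08 and 6 in bulge, 8.62, 7.85 and 8.49 in hair germ, and 8.91, 7.58 and 8.25 in papilla. The 3 bulge values lay close together and more than a log2 unit below any other array. The difference was 2.23 ± 0.26 log2 units or 4.7-fold for hair germ over bulge (adjusted p 0.000206), and 2.16 ± 0.26 or 4.46-fold for papilla over bulge (adjusted p 5.72e-05). Hair germ and papilla overlapped, and the difference of -0.07 ± 0.26 (papilla minus hair germ) could not be told from 0 with these arrays.

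Sqle, the squalene epoxidase, was instead highest in papilla, with 9.99, 8.86 and 9.64 against 8.14, 8.28 and 8.88 in hair germ and 8.09, 8.08 and 7.04 in bulge. The lowest papilla array, of day 56, lay below the highest hair germ array, of day 69. Papilla exceeded bulge by 1.76 ± 0.36 (adjusted p 0.00283) and hair germ by 1.06 ± 0.36 (adjusted p 0.0373). The second call ended without the day 43 array of any population, the papilla array of day 69 or the hair germ array of day 56 (adjusted p 0.0525 to 0.18).

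Sc5d, a sterol desaturase late in the chain, read 8, 8.02 and 7.22 in hair germ, 6.65, 6.74 and 7.24 in papilla, and 6.59, 6 and 6.37 in bulge. Hair germ stood above bulge on all days, by 1.42 ± 0.3 (adjusted p 0.00801), and its day 69 array met the papilla array of that day. Hsd17b7, a sterol ketone reductase, read 7.3, 7.45 and 7.21 in hair germ, 6.25, 6.21 and 6.38 in bulge, and 6.65, 6.05 and 7.02 in papilla. The hair germ arrays were the 3 highest, 1.04 ± 0.27 above bulge (adjusted p 0.0206). Both genes were lower in papilla than in hair germ, Sc5d by 0.87 ± 0.3 (adjusted p 0.0407) and Hsd17b7 by 0.74 ± 0.27 (adjusted p 0.0472), calls that ended after quantile normalization (adjusted p 0.0633 and 0.089). Dhcr7, a reductase that completes cholesterol, was lower in papilla, with 7.6, 6.65 and 7.27 against 7.85, 8.16 and 7.84 in bulge and 7.84, 7.98 and 8.38 in hair germ. All papilla values lay below all epithelial values, by 0.9 ± 0.27 against hair germ (adjusted p 0.0239) and 0.78 ± 0.27 against bulge (adjusted p 0.0476). Both calls ended after quantile normalization (adjusted p 0.0511 and 0.0546), and without the papilla array of day 56 (0.15 and 0.258) or of day 69 (0.0654 and 0.11).

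Fdft1, Lss, Msmo1, Nsdhl, Tm7sf2 and Ebp passed in no comparison of populations. Fdft1, the squalene synthase, was 0.93 ± 0.34 higher in hair germ than in bulge (adjusted p 0.0796), with the groups apart. Msmo1, a methyl sterol oxidase, was 1 ± 0.4 higher (adjusted p 0.104), also with the groups apart. Lss, the lanosterol synthase, gave 0.54 ± 0.24 for its brightest probe set (adjusted p 0.149) and -0.22 for its other kept one. Tm7sf2 and Ebp, a reductase and an isomerase, had their highest mean in bulge, at 6.96 ± 0.34 (SD, n = 3) and 8.52 ± 0.12. Of 16 genes with several kept probe sets, 13 had the same sign in all of them for hair germ minus bulge, including all 8 that passed.

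The promoters of these genes were searched for motifs of the factors known to act on sterol genes, and 4 are printed here from RefSeq on GRCm38.p6, chosen after the matches were known. Each line gives the 150 bases before the annotated start, 5' to 3' on the gene's strand, with capitals for TCACNCCAC, the core of a sterol regulatory element, and for CCAAT or its complement ATTGG, the box bound by NF-Y. Hmgcs1 is at chr13:119690201-119690350 on the plus strand, Cyp51 at chr5:4104698-4104847, Sc5d at chr9:42264301-42264450 and Mvd at chr8:122443423-122443572, all 3 on the minus strand. Hmgcs1 is shown because it alone, of the 26 genes with a window, held a TCACNCCAC match. Other forms of the sterol element were not searched, so the lack of a match does not show that a gene lacks one. The others are shown because they were among the sterol genes higher in hair germ and hold a CCAAT box close to the start.
Hmgcs1: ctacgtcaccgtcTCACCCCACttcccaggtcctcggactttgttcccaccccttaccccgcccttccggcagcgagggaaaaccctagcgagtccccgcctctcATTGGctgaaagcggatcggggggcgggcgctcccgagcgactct
Cyp51: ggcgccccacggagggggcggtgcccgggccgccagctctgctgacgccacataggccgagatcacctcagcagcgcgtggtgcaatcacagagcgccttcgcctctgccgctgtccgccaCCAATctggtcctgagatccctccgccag
Sc5d: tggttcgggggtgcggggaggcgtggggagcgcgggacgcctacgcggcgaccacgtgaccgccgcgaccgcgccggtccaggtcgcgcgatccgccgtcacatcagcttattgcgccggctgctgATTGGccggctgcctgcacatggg
Mvd: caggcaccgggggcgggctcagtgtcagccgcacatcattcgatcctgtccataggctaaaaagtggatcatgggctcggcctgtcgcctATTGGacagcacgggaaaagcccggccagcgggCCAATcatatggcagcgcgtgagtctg

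In the Hmgcs1 stretch the TCACNCCAC match starts 137 bases before the gene and the nearest CCAAT match 45 before it. The CCAAT matches start 29 bases before Cyp51, 24 before Sc5d, and 60 and 27 before Mvd. Windows of 250 bases before to 50 after the start were at hand for 26 of the 33 genes, with 32 windows in all. On both strands, CCAAT was found in 23 of the 32 windows (71.9%), against 37.4% of all 32851 promoters and 36.9% of the 8265 promoters of tested genes. The Sp1 box GGGCGG was in 75% of the windows against 35.7% of all promoters and 64.9% of those of tested genes, and the E-box CACGTG in 18.8% against 7.15% and 10.3%. TCACNCCAC was in 1 window (3.12%) against 1.24% and 1.1%. Neighbouring or alternative windows of a gene can share bases. A match describes letters in the window and does not show that a factor bound there in these cells.

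Of the regulators and the carrier, 1 of 3 tested genes was higher in hair germ than in bulge (12.2% of all genes were), and it was higher in papilla as well. Srebf1 read 8.49, 9.04 and 8.43 in bulge, 9.45, 9.27 and 9.86 in hair germ, and 10.24, 9.9 and 9.78 in papilla. Bulge lay below every other array, and hair germ and papilla overlapped slightly. Srebf1 was 1.32 ± 0.26 higher in papilla than in bulge (adjusted p 0.00192) and 0.87 ± 0.26 higher in hair germ than in bulge (adjusted p 0.0358), the latter ending after quantile normalization (adjusted p 0.0589) and after median centring (0.109). Srebf2, the paralog that chiefly serves sterol genes, read 6.66, 6.79 and 6.7 in bulge, 7.23, 6.89 and 7.22 in papilla, and 6.03, 7 and 6.22 in hair germ, and passed in no comparison. Its 2 probe sets went opposite ways for hair germ minus bulge, at -0.3 and 1.39, so its order is uncertain. Stard4, which carries cholesterol between membranes, averaged 7.18 ± 0.1 (SD, n = 3) in bulge, 7.62 ± 0.18 in papilla and 7.67 ± 0.83 in hair germ, where day 56 stood out at 8.59 against 6.99 and 7.43.

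Of the 2 fatty acid synthesis genes tested, Fasn was higher in hair germ and in papilla than in bulge, and Acly passed in no comparison. Fasn, the synthase, read 8.25, 8.32 and 7.54 in bulge, 9.01, 8.87 and 8.9 in hair germ, and 9.08, 8.36 and 9.26 in papilla. The bulge values lay below all others, closely so for the papilla array of day 56. The difference was 0.89 ± 0.28 for hair germ over bulge (adjusted p 0.0465) and 0.87 ± 0.28 for papilla over bulge (adjusted p 0.0333). Without the bulge array of day 69, the lowest of the 9, the adjusted p-values were 0.262 and 0.209, and the hair germ call also ended after median centring (0.112). Acly, which makes cytosolic acetyl-CoA from citrate, ranged only from 10.08 to 11.04 over the 9 arrays.

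In each of the 4 comparisons between populations the largest difference among the 30 genes belonged to a desaturase. Scd1, a stearoyl-CoA desaturase that makes monounsaturated fatty acids, read 8.07, 8.42 and 8.41 in bulge, 11.45, 10.34 and 10.47 in hair germ, and 10.51, 9.45 and 10.88 in papilla. Every hair germ and papilla array exceeded every bulge array. Scd1 was 2.46 ± 0.33 log2 units or 5.49-fold higher in hair germ than in bulge (adjusted p 0.000622), and 1.98 ± 0.33 or 3.95-fold higher in papilla than in bulge (adjusted p 0.000752). Hair germ and papilla overlapped, with a difference of -0.47 ± 0.33 (adjusted p 0.294).

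Scd2, the close paralog, ran from 6.95, 6.86 and 5.82 in bulge through 9.2, 10.1 and 8.58 in hair germ to 11, 9.92 and 11.16 in papilla. Bulge stood apart from both, and the hair germ array of day 56 overlapped the papilla array of that day. Scd2 was 17.7-fold higher in papilla than in bulge (4.15 ± 0.43 log2 units, adjusted p 1.9e-05) and 6.71-fold higher in hair germ than in bulge (2.75 ± 0.43, adjusted p 0.00129). Papilla exceeded hair germ by 1.4 ± 0.43 (adjusted p 0.0233), a call that ended without the hair germ array of day 43 (adjusted p 0.0967) or of day 69 (0.101), or without the papilla array of day 43 (0.0651) or of day 69 (0.128). Without papilla of day 43 and hair germ of day 69 together the difference was 0.91 (adjusted p 0.327). Without the 3 arrays with a GAPDH ratio above 6, which leaves 1 hair germ array, it was 0.44. A second probe set gave the same order for Scd2, at 3.39 for papilla minus bulge and 1.91 for papilla minus hair germ, and a second probe set for Scd1 gave 1.39 and -0.14. How far probes of one gene also read the other was not tested.

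Fads1, a desaturase of polyunsaturated fatty acids, read 9.75, 9.69 and 10.52 in papilla, 6.6, 8.3 and 7.04 in hair germ, and 5.57, 5.36 and 6.37 in bulge. The 3 populations did not overlap at all. Papilla was 18.6-fold above bulge (4.22 ± 0.39 log2 units, adjusted p 8.64e-06) and 6.36-fold above hair germ (2.67 ± 0.39, adjusted p 0.000271), and hair germ was 2.92-fold above bulge (1.55 ± 0.39, adjusted p 0.0188). The last of these ended without the bulge array of day 56 (adjusted p 0.106) or of day 43 (0.0532). In bulge only the day 69 array lay above its median for Fads1, so the bulge level is uncertain, and the difference between papilla and bulge ran from 3.36 to 4.69 log2 units over the alternatives.

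Fads2, which acts a step before Fads1 on the same chains, read 7.4, 6.94 and 7.49 in papilla, 4.6, 5.55 and 5.35 in hair germ, and 4.52, 4.65 and 4.9 in bulge. It lay above the array median in the 3 papilla arrays only, so the filter kept it through the group in which it was high, and the epithelial levels are near the floor of the scale. Papilla exceeded hair germ by 2.11 ± 0.31 (adjusted p 0.00026) and bulge by 2.59 ± 0.31 (adjusted p 5.65e-05), while hair germ and bulge overlapped and differed by 0.48 ± 0.31 (adjusted p 0.312). A second probe set, above the median in no array and so not kept, read 5.09, 5.42 and 5.69 in papilla. It read 4.96, 5.46 and 5.03 in hair germ, overlapping papilla, and 4.88, 4.73 and 4.69 in bulge.

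**Figure D3:**
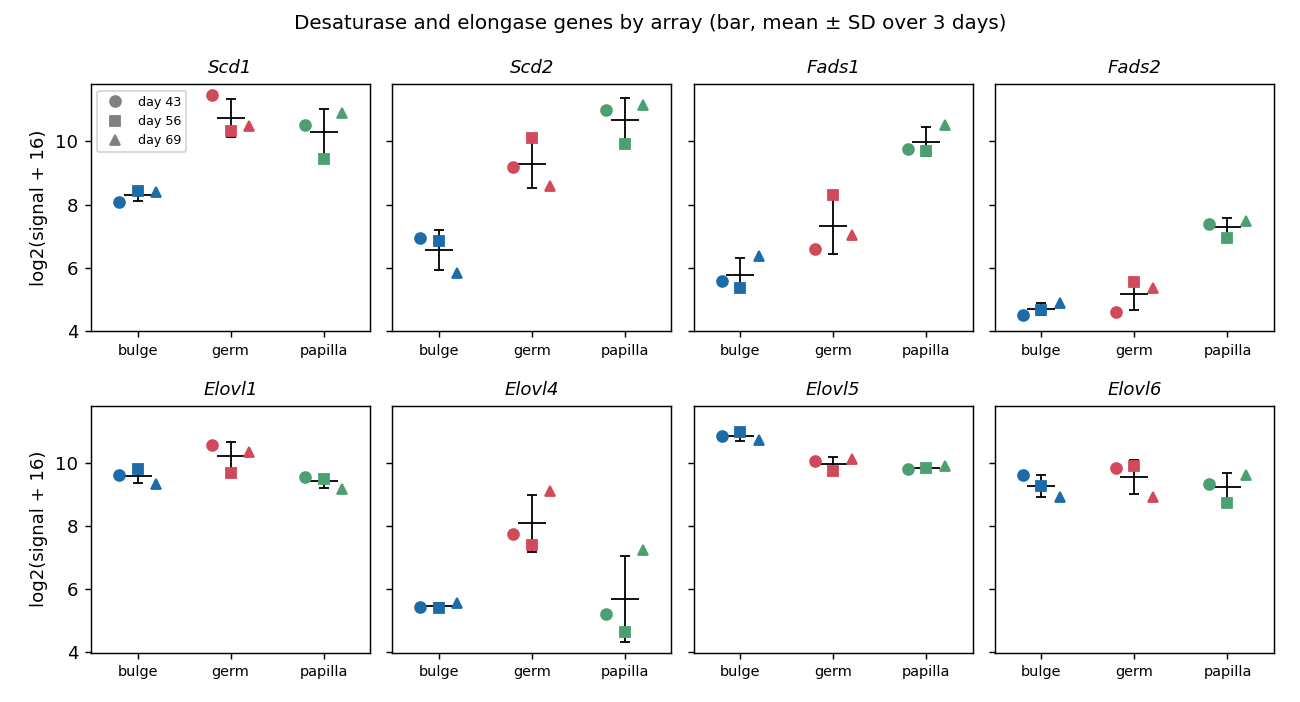
Levels of the 4 desaturases and 4 elongases as log2(signal + 16) (y axis) in each array by population, with symbols for days 43, 56 and 69 and the bar for the mean ± SD over 3 days. Fads1 and Fads2 show the 3 papilla points above all others, Elovl4 the 3 hair germ points between 7.39 and 9.11 above all others, and Elovl5 the 3 bulge points between 10.71 and 10.97 on top.

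The elongases did not move as a group. Elovl4, which makes the very long chains of barrier ceramides, read 7.75, 7.39 and 9.11 in hair germ, 5.45, 5.4 and 5.57 in bulge, and 5.2, 4.66 and 7.23 in papilla. Hair germ stood above both, and the papilla array of day 69 stood above the other papilla arrays. Elovl4 was 6.11-fold higher in hair germ than in bulge (2.61 ± 0.39 log2 units, adjusted p 0.0011) and 5.22-fold higher than in papilla (2.39 ± 0.39, adjusted p 0.000624). Without the 3 arrays with a GAPDH ratio above 6, which include 2 of the 3 hair germ arrays, it was 1.92 log2 units higher in hair germ than in bulge (adjusted p 0.15), and the difference for papilla minus hair germ was -1.44 (adjusted p 0.238). A second probe set gave 2.27 for hair germ minus bulge and -1.96 for papilla minus hair germ.

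Elovl5, an elongase of polyunsaturated chains, read 10.83, 10.97 and 10.71 in bulge, 10.05, 9.74 and 10.13 in hair germ, and 9.8, 9.83 and 9.91 in papilla. All bulge arrays exceeded all others, by 0.86 ± 0.2 over hair germ (adjusted p 0.0126) and 0.99 ± 0.2 over papilla (adjusted p 0.0025), and only the second held under all 19 alternatives. Elovl1, an elongase of saturated chains, was 0.79 ± 0.25 lower in papilla than in hair germ for its brightest probe set (adjusted p 0.0268), a call that ended after quantile normalization (adjusted p 0.0594), and its dimmest kept probe set gave 0.08. Elovl6, which turns palmitate to stearate, averaged 9.23 ± 0.46 (SD, n = 3) to 9.56 ± 0.54 in the 3 populations and passed in no comparison.

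Lists of mitosis genes and of cell type markers also differed between the populations, not always in the order of the lipid genes. The summed signal of 26 matched mitosis genes was 5771 to 14918 in hair germ, 566 to 958 in bulge and 299 to 569 in papilla, and 24 were tested. Of these, 15 lay above the array median in hair germ arrays only, so the filter kept them through the group in which they are high. Suprabasal epidermis markers, of which 10 of 12 matched, summed to 14897 to 35285 in hair germ, 5016 to 7922 in bulge and 358 to 792 in papilla. Of 7 tested, 4 were higher and 1 lower in hair germ than in bulge, where 12.2% of all genes were higher and 7.56% lower. Papilla was the lowest population on both lists.

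Sebocytes and adipocytes are rich in these enzymes, so their markers are given beside them. Sebocyte markers, of which 14 of 20 matched, summed to 4475 to 4646 in hair germ, 2950 to 4513 in papilla and 1974 to 2911 in bulge. Of 8 tested, 2 were higher in hair germ than in bulge (Krt79 and Acsbg1), where 12.2% of all genes were. Scd3, Pparg, Plin5 and Cd36 were at or below the median in all 9 arrays. Adipocyte markers, of which 11 of 13 matched, summed to 650 to 2006 in papilla, 407 to 614 in hair germ and 169 to 230 in bulge. The defining adipocyte genes Adipoq, Plin4, Lep, Retn, Cidec and Car3 were at or below the median in all arrays, together with Pck1 and Acvr1c. Of the 3 adipocyte markers tested, Fabp4 and Cebpa were higher in papilla than in each epithelial population and higher in hair germ than in bulge. Over all genes the shares were 16.1% for papilla over bulge, 15.5% for papilla over hair germ and 12.2% for hair germ over bulge. Cebpa, a transcription factor of fat cells among others, read 8.41, 8.77 and 9.04 in papilla, 7.13, 7.16 and 6.95 in hair germ, and 5.81, 6.18 and 5.99 in bulge. The sum of leukocyte markers ran lowest in papilla, at 155 to 639 against 564 to 984 in hair germ and 718 to 972 in bulge, overlapping hair germ. Of 5 tested, 4 were lower in papilla than in hair germ, where 23.8% of all genes were. Laptm5 was not, at 5.14, 7.99 and 9.07 in papilla, where day 69 was the highest of the 9 arrays. Melanocyte markers were also lowest in papilla, at 422 to 736 against 2291 to 5004 and 2312 to 3014. The endothelial sum ran highest in papilla, at 217 to 417 against 66 to 243 and 63 to 115. Pecam1, Cdh5, Kdr, Tek and Emcn, 5 of the 8 endothelial markers, were at or below the median in all 9 arrays. Eng read 6.86, 7.69 and 7.54 in papilla against at most 5.74 elsewhere, and the filter kept it through papilla arrays only. Esam, the other one tested, read 5.93, 6.44 and 5.86 in papilla and 4.35, 5.17 and 6.84 in hair germ, with overlap. Of the 4 melanocyte markers tested, Dct, Tyrp1 and Pmel were higher in hair germ than in bulge and Mitf was lower (12.2% and 7.56% of all genes were). Tyrp1 lay above the array median in hair germ arrays only, so the filter kept it through the group in which it is high. Dct, a pigment enzyme, read 10.44, 11.31 and 10.07 in hair germ against 5.95 to 6.43 in bulge, while Mitf, which makes up most of the bulge sum, read 11.26, 11.49 and 11.06 in bulge against 8.78, 9.44 and 9.07 in hair germ. The part of other cell types in the lipid gene differences was not tested.

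Across telogen, none of the 30 genes passed for day 69 against day 43 or for day 56 against day 43 in limma, nor did any of all 7795 genes (0% for both). At an unadjusted p below 0.05 there were Elovl4 for day 69 and Idi1 and Cyp51 for day 56, beside 565 and 398 of all genes. The smallest adjusted p among the 30 genes was 0.68 for day 69 and 0.845 for day 56. Within a population each day has 1 array, so the following values have no replicate and no test.

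In dermal papilla the lipid genes were lower on day 56 than on the days before and after. Day 56 was the lowest day for 24 of the 30 genes, against 31.1% of all genes, including all 6 mevalonate genes, 8 of 11 sterol genes and all 4 desaturases. The median difference from day 43 was -0.54 log2 units (0.04 over all genes), with 26 of 30 below 0, and the median difference from day 56 to day 69 was 0.66 (0.03 over all genes), with 26 of 30 above 0. Hmgcs1, Fdft1, Idi1, Cyp51, Sqle, Scd2, Scd1 and Msmo1 were at least 2-fold lower on day 56 than on day 43, 8 of 30 against 2.58% of all genes, and Ebp was at least 2-fold higher. From day 56 to day 69, Elovl4, Msmo1, Scd1 and Scd2 were at least 2-fold higher, 4 of 30 against 2.59% of all genes, and none was as much lower.

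Hmgcs1 went from 12.43 through 10.36 to 11.16 in papilla, and Elovl4 from 5.2 through 4.66 to 7.23. Fdft1 went from 10.43 through 8.74 to 9.73, and Msmo1 from 8.03 through 7.01 to 8.61. Mvd, by contrast, was level at 6.58, 6.58 and 6.6, and Fads1 hardly dipped, at 9.75, 9.69 and 10.52. With other pseudocounts, scalings or the mean of probe sets, day 56 was lowest for 23 to 24 of the 30 genes. The actin 3' to 5' ratio of the same arrays was 13.47, 4.32 and 3.12 and the GAPDH ratio 6.62, 4.13 and 3.77. The part of RNA length in the day 56 values was not tested. The day 43 array also had the higher Krt15, Krt5 and Fgf18 given above (Krt15 at 8.13 against 4.29 and 4.06). The part of epithelial RNA in its higher lipid gene levels was not tested. The cause of the rise from day 56 to day 69 was not tested either. Handling of 1 array and its day cannot be told apart.

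**Figure D4:**
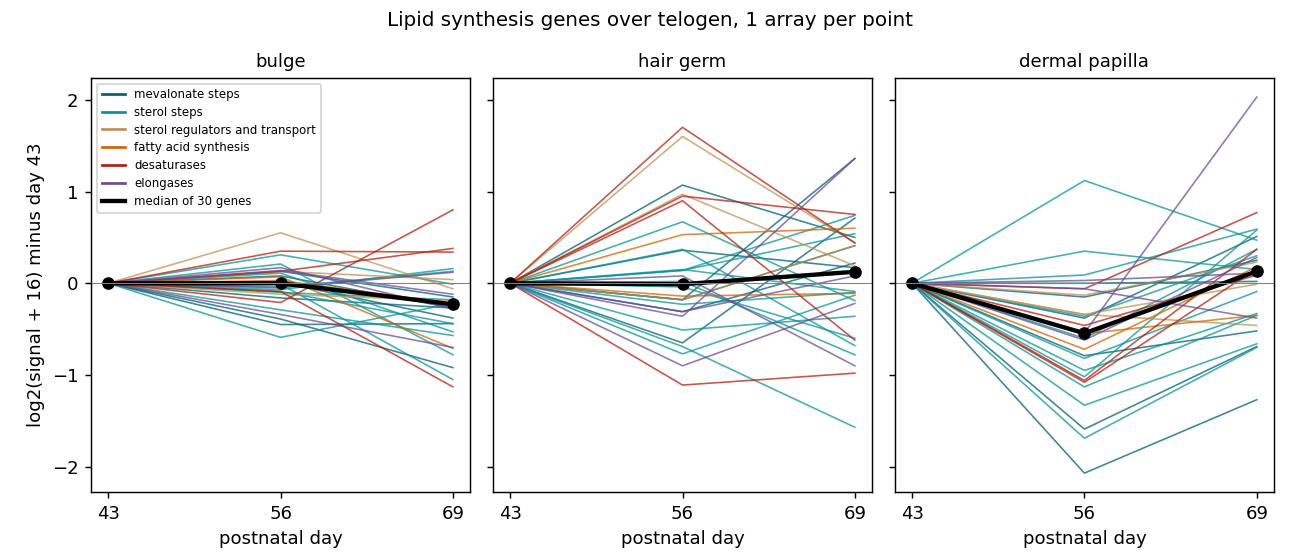
Change of each tested gene from day 43 in log2(signal + 16) (y axis) over postnatal days (x axis), one panel per population and 1 array per point, coloured by role, with the median of the 30 genes in black. The median in dermal papilla drops to -0.54 on day 56 and is 0.14 on day 69, that in bulge ends at -0.23, and that in hair germ at 0.12.

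In bulge the days differed less. Day 69 was the lowest day for 21 of the 30 genes against 37.4% of all genes, and the median difference from day 43 was -0.23 (0.01 over all genes), with 23 of 30 below 0. Sqle, from 8.09 to 7.04, and Scd2, from 6.95 to 5.82, were the genes at least 2-fold lower on day 69 than on day 43, and none was as much higher, against 1.12% of all genes lower and 1.48% higher. All 6 mevalonate genes and 9 of 11 sterol genes were lower on day 69 than on day 43, where 51.1% of all genes were higher, and both counts were the same after quantile normalization and after median centring.

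In hair germ no common course was seen. The median for day 69 against day 43 was 0.12 beside 0.13 over all genes, and median centring turned it to -0.16. The 6 mevalonate genes were all higher on day 69 than on day 43, with a median of 0.46, while 9 of 11 sterol genes were lower, with a median of -0.2, and 58.1% of all genes were higher. After quantile normalization 5 of the 6 mevalonate genes were higher (49% of all genes) and after median centring 4 of 6 (40.4%), and the 9 sterol genes were lower under both. Pmvk, at 7.55, 7.37 and 8.91, and Elovl4 were at least 2-fold higher on day 69 than on day 43, and Ebp, at 8.89, 8.2 and 7.32, was at least 2-fold lower, beside 7.67% of all genes up and 4.67% down. On day 56 Fads1, Fdps and Stard4 were at least 2-fold above day 43 and Scd1 was at least 2-fold below, beside 5.39% and 2.86% of all genes. The hair germ array of day 56 had a GAPDH ratio of 2.97 against 8.34 and 7.9 on the other days, and its part in these values was not tested.

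Of 30 other genes of sterol handling, 21 were tested, and 3 were higher in hair germ than in bulge (12.2% of all genes were), with none lower: Hsd17b12 by 1.01 ± 0.22 (adjusted p 0.00858), Rdh11 by 0.83 ± 0.25 (adjusted p 0.0372) and the sterol exporter Abcg1 by 1.12 ± 0.33 (adjusted p 0.0356). Against the mean of both epithelial populations, 3 were higher in papilla and 6 lower, a share of the 21 close to the 40.3% of all genes that passed. The lower ones included proteins that hold or release SREBP in the endoplasmic reticulum. Scap, the SREBP escort, read 8.81, 9.06 and 8.75 in papilla, 10.64, 9.83 and 9.98 in hair germ, and 10.05, 10.12 and 9.89 in bulge, with no overlap between papilla and the others. Papilla was lower by 1.21 ± 0.2 for Scap (adjusted p 0.000532), by 0.98 ± 0.19 for the SREBP retention protein Insig2 (adjusted p 0.0014) and by 1.44 ± 0.21 for Erlin1 (adjusted p 0.000237). The cholesterol transporter Npc1 and the sterol hydroxylases Cyp27a1 and Ch25h were also lower in papilla, by 0.87, 1.59 and 1.54, and Nr1h3, Lipa and Dhdds were higher, by 0.84, 0.66 and 0.64.

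Of 35 other genes of fatty acid handling, 18 were tested, and 6 were higher in hair germ than in bulge and none lower, where 12.2% of all genes were higher and 7.56% lower. Me1, a source of NADPH for fatty acid synthesis, read 6.9, 8.02 and 8.84 in hair germ, 5.51, 4.61 and 4.7 in bulge, and 6.49, 4.79 and 6.39 in papilla. Its hair germ values exceeded all others, by 2.98 ± 0.5 over bulge (adjusted p 0.00211). Fabp5, the epidermal fatty acid carrier, was 2.72 ± 0.34 higher in hair germ than in bulge (adjusted p 0.000374) and Elovl7 1.91 ± 0.26 higher (adjusted p 6e-04), and Acsl4, Mid1ip1 and Hacd2 were higher by 1.65, 1.17 and 1.15. In papilla against the epithelial mean, 3 of the 18 were higher and 7 lower, where 40.3% of all genes passed. Fads3, another member of the Fads family, read 6.62, 5.97 and 6.47 in papilla against 4.09 to 4.5 in hair germ and 4.11 to 4.28 in bulge. It was 2.12 ± 0.26 higher in papilla (adjusted p 7.08e-05) and, like Fads2, lay above the array median in papilla arrays only, so the filter kept it through the group in which it is high. Acss2 and Hacd1 were higher in papilla by 0.98 and 0.93, and Elovl7, Acsl5, Dgat2, Tecr, Fabp5, Hacd2 and Gpam were lower, by 2.03, 1.91, 1.31, 1.19, 1.1, 0.74 and 0.47.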

How the data were processed

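The authors deposited MAS5 probe set signals, a linear intensity scale, with GCOS and MAS5 named in the submitters' processing notes. Versions and scaling target are not given in the sources used here, and detection calls were not used. Of 22690 probe sets, 64 were controls, and in the supplied annotation 20380 had 1 gene symbol, 691 several and 1555 none.

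Values were taken as log2(signal + 16) with no further scaling. Probe sets that exceeded the median of the same array on 3 or more of the 9 arrays were kept (12801), and the brightest kept probe set stood for a gene. R 4.3.3 with limma 3.58.1 (lmFit, eBayes with a trend) was fitted to all 9 arrays with population and day as additive terms, leaving 4 residual degrees of freedom, with two-sided p-values adjusted by the Benjamini-Hochberg method over 7795 genes. Arrays give no read depth, and their number limits the precision. The steps were tested on simulated data. Fold differences between 2 arrays of a population needed 2-fold and the higher array above its median.

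Members and gene lists were chosen with earlier results of these data known. All members could be named, as could genes of the other pathway lists that passed, and up to 4 of the brightest markers per list besides the sort genes. Promoters were searched in RefSeq windows (GRCm38.p6) with Python 3.11.15. The rule for printing promoters, a TCACNCCAC match in a gene higher in hair germ, found none, so those printed were chosen afterwards. A comparison of the Scd1 and Scd2 proteins was not run. Alternatives covered the pseudocount, scaling, filter, probe set choice, trend, day term and single arrays.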

Additional observations from a re-analysis of the deposited data

How the results depend on the processing

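With each array left out in turn, the number of genes that passed ran from 7 to 14 for hair germ minus bulge, from 7 to 14 for dermal papilla minus the epithelial mean, from 6 to 10 for dermal papilla minus hair germ and from 10 to 14 for dermal papilla minus bulge. It was 0 throughout for both day comparisons. Sets of arrays chosen after seeing the data were also left out: without dermal papilla of day 43 together with hair germ of day 69, 8 genes passed for hair germ minus bulge and 6 for dermal papilla minus hair germ, and without the 3 arrays with a GAPDH ratio above 6, with day left out of the model, 6 passed for dermal papilla minus hair germ. The cause was not tested, beyond there being fewer arrays. With no replicate block, that is with day left out of the model, 13, 10, 10 and 12 genes passed in the 4 comparisons in the order above, and the day comparisons cannot be made. The other pseudocounts, scalings, filter, probe set choice and trend left each number within 1.5 times its value with all arrays, and no difference that passed changed sign under any alternative run. The medians for day 69 against day 43 within a population ran from -0.26 to -0.17 in bulge, from -0.03 to 0.17 in dermal papilla and from -0.16 to 0.14 in hair germ, so the last 2 have no settled direction. The counts of signs by role for those days under other scalings were added after seeing the data.

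Precision is limited by 3 arrays per population and 1 per day within it. Signals near an array's median, as for Mvd, Fads1, Fads2, Scd2 and Elovl4 in their low populations, compress differences on this scale.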

Other observations

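The following genes were singled out after their values were seen. Mc5r, a melanocortin receptor known from sebaceous glands and listed as a sebocyte marker, read 7.04, 6.71 and 7.47 in dermal papilla on days 43, 56 and 69, against 4.83 to 5.14 in hair germ and 4.82 to 5.16 in bulge, with no overlap. Like Fads2, Mc5r lay above the array median in papilla arrays only, so the filter kept it through the group in which it is high. Fabp4, a fatty acid carrier best known from adipocytes, read 7.83, 8.8 and 9.93 in dermal papilla, 4.5, 6.38 and 7.35 in hair germ, and 4.12, 4.43 and 5.19 in bulge. Each of its values was higher than that of the earlier day in the same population, with 1 array per day and an adjusted p of 0.632 for day 69 against day 43, while Adipoq stayed between 4.06 and 4.76 in all arrays.

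For 6 of the 16 genes with several kept probe sets, the sign of dermal papilla minus hair germ differed between probe sets (Cyp51, Elovl1, Elovl6, Lss, Mvd and Srebf2). Of these only Elovl1 had passed. Lss read 7.71, 7.48 and 7.61 in hair germ with its brightest probe set and 6.5, 7.05 and 6.32 with the other, against 7.86, 7.04 and 7.77 and 8.23, 6.53 and 7.67 in dermal papilla.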
